A study of Mus musculus with 16 samples.

Results

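The comparison set livers that lack both FXR and SHP against livers that lack FXR alone, at 5 weeks of age. It asks about the further loss of SHP where FXR was already gone. It cannot tell that loss apart from other differences between the mice of both groups. It used 4 of the 16 arrays of the study: FXRSHPko replicates 1 and 2 (FXR-/-,SHP-/- double knockout) and FXRko replicates 1 and 2 (FXR-/-). All arrays came from liver of male C57Bl/6 mice kept on normal chow, and Nr1h4, the gene of FXR, is deleted on both sides. Congenic FXR-/- and SHP-/- mice were crossed to make the double knockout, while the wild-type mice of the study were bought from a supplier. The other groups used for reference were wild type and SHP-/- at 5 weeks and FXR-/- and double knockout at 3 weeks, with 2 arrays each. A probe entered when its detection p-value was under 0.01 on both arrays of either group, which kept 9960 of 24613 probes (40.5%), or 7436 genes at 1 probe a gene.

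FXR is a nuclear receptor that bile acids activate in the hepatocyte. One of the genes it induces is Nr0b2, which encodes SHP, a nuclear receptor without a DNA-binding domain that represses other receptors such as LRH-1 and HNF4-alpha. SHP is known as a brake on the bile acid enzymes Cyp7a1 and Cyp8b1, and FXR can also reach these genes through the intestinal hormone FGF15.

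The arrays were Illumina bead arrays, and levels are log2 intensities after background correction and quantile normalization. The ± sign gives the standard error of a log2 fold change, from n = 2 arrays in each group, and a gene rose or fell when limma's p-value, adjusted over the 7436 genes, was under 0.05. The labels do not say whether duplicate arrays are separate animals, so the p-values measure only the spread between these arrays, which may be technical, and 2 arrays a group limit the precision. All arrays of 5 weeks lay on 1 slide. On the 4 arrays 9597 to 10431 probes were detected. The labelling controls were weak on double-knockout replicate 2, with a biotin signal of 903 against 2959 on replicate 1 and 2969 and 3105 on the FXR-/- arrays. The SD over genes of the log2 difference between duplicates was 0.181 in FXR-/- and 0.210 in the double knockout.

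Nr1h4 was at a log2 level of 5.92 and 5.97 on the FXR-/- arrays and 5.87 and 6.17 on the double-knockout arrays. Its probe was still detected on these arrays, but both groups lay far below wild type, where it was 10.54 and 10.60, and SHP-/-, where it was 11.18 and 11.03. The Nr0b2 probe was undetected on all 16 arrays, wild type included, so its transcript could not serve to check the deletion of SHP. Hepatocyte markers had a mean log2 level of 11.06 to 11.29 on the 4 arrays, and all 18 measured markers were detected on each.

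Of the 7436 genes, 890 (12.0%) were higher and 694 (9.33%) were lower in the double knockout. Counts of list members given below are to be read against these shares. At least 2-fold changes with an adjusted p under 0.05 numbered 234 (3.15%), 174 higher (2.34%) and 60 lower (0.807%), so the larger changes were mostly rises. The median log2 fold change of all genes was -0.00783. Of the called genes, 166 higher ones were undetected on both FXR-/- arrays and 46 lower ones on both double-knockout arrays. For such genes the fold is given as a bound against the lowest signal that counted as detected, written as "at least". Without double-knockout replicate 2, 1143 genes were called against 1584 with it, 1064 of them in common.

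**Figure D1:**
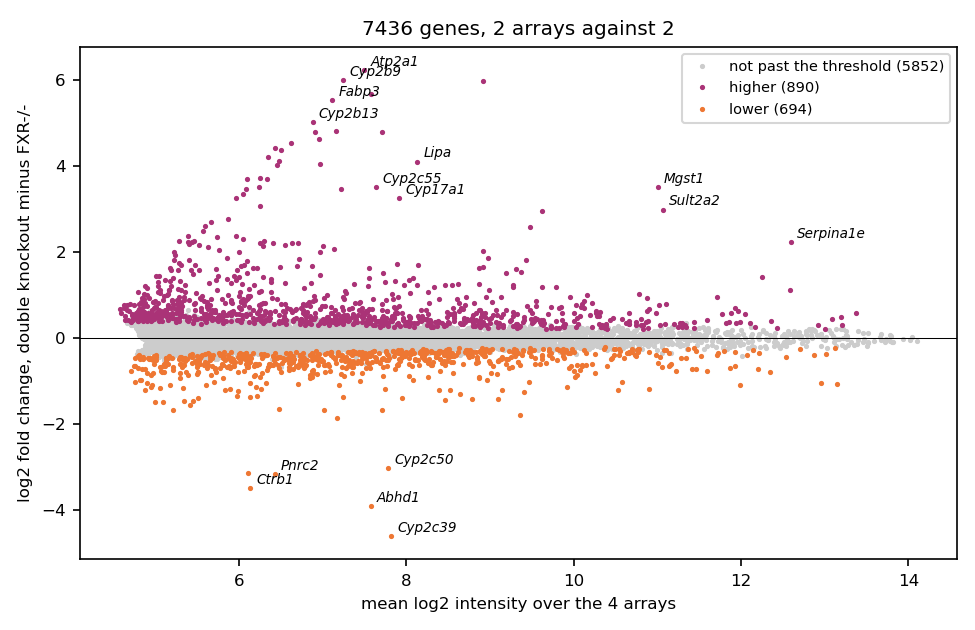
Each point is 1 of 7436 genes, with the mean log2 intensity over the 4 arrays on the x axis and the log2 fold change, double knockout minus FXR-/-, on the y axis. The 890 higher genes reach a fitted 6.22 (Atp2a1, undetected in FXR-/-) and the 694 lower genes reach -4.59 (Cyp2c39).

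The 234 genes of at least 2-fold were also set beside the other genotypes of 5 weeks. For 111 genes the double-knockout mean lay within 2-fold of both the wild-type and the SHP-/- mean and the FXR-/- mean did not. Of these, 86 were higher in the double knockout than in FXR-/- and 25 were lower, and 27 of the 111 belong to the lists of muscle, pancreas, adipose, erythroid and Y-linked genes. For 54 genes it was the FXR-/- mean that lay within 2-fold of both and the double-knockout mean that did not, 45 higher and 9 lower, with 0 genes of those lists. Both means lay within 2-fold for 25 genes and neither for 44. This division was made after the values were seen and carries no test.

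Skeletal muscle transcripts were higher in the double knockout, with a larger median than any other list described here. Of 30 measured muscle markers 28 were higher in the double knockout, 1 was lower and 1 did not pass, with a median log2 fold change of 3.47, or 2.98 with the 20 genes that were undetected in 1 group set at their bound. The mean log2 level of the list was 4.80 and 4.78 on the FXR-/- arrays, where 8 and 9 of the 30 were detected. It was 7.91 and 7.94 on the double-knockout arrays, with wild type at 7.37 and 7.33 and SHP-/- at 8.12 and 8.11. Among the groups of 5 weeks it was thus the FXR-/- arrays that were low. At 3 weeks wild type was the low one, at 4.691 and 4.735, with FXR-/- at 6.626 and 6.622. The level of the list therefore did not follow genotype across the ages. The summed linear signal of the list was 926.8 and 945.3 in FXR-/- against 14440 and 14810 in the double knockout.

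Acta1, the actin of skeletal muscle, was at a log2 level of 5.89 and 5.95 in FXR-/- against 11.84 and 11.96 in the double knockout, a rise of 63.1-fold (5.98 ± 0.09, adjusted p = 8.9e-19). Atp2a1, the calcium pump of fast muscle, was undetected in FXR-/- at 4.43 and 4.35 and stood at 10.63 and 10.58 in the double knockout, at least 51.3-fold higher. Tnni2, a fast troponin, was at least 44.6-fold higher, the calcium buffer Pvalb at least 24.7-fold and the tropomyosin Tpm2 at least 20.8-fold, although another probe of Tpm2 rose by only 1.55. Genes of striated muscle outside the list were higher too: Fabp3 was at least 30.8-fold higher, Myl2 at least 11.5-fold, Rpl3l at least 9.12-fold, Myl3 at least 7.22-fold and Myoz2 at least 5.0-fold. In a bulk sample fewer cells of a type and less RNA per cell cannot be told apart. The part of these muscle transcripts in the other results was not tested.

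Exocrine pancreas transcripts went the other way. Of 17 measured markers 14 were lower, 1 was higher and 2 did not pass, with a median of -0.97, or -0.62 at the bounds. Ctrb1, a chymotrypsinogen, was at 7.84 and 7.91 in FXR-/- and undetected in the double knockout at 4.33 and 4.46, at least 8.21-fold lower (adjusted p = 4.1e-14). The elastase Cela2a fell by 1.85 ± 0.11 and the trypsinogen Try4 was at least 1.87-fold lower. All 17 markers were detected on each FXR-/- array and 6 on each double-knockout array, and the summed signal was 5242 and 5673 against 3912 and 4012. Pancreas levels were highest in SHP-/-, where the summed signal was 12860 and 13670. Wild type differed between the ages, with a summed signal of 12280 and 11980 at 3 weeks and 4108 and 4172 at 5 weeks.

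Smaller differences were found in blood and fat transcripts. Of 11 erythroid markers 5 were lower and 1 was higher, with Hbb-b2, a beta-globin, at -0.81 ± 0.10 and Hbb-bt, another beta-globin, at least 1.94-fold higher. The summed erythroid signal was 14850 and 14970 in FXR-/- against 11230 and 12170 in the double knockout. Of 6 adipose markers, the hormone gene Adipoq was at least 2.53-fold lower and the lipase Lpl rose by 0.74 ± 0.08. Eif2s3y, a Y-linked gene, was undetected on both FXR-/- arrays at 4.33 and 4.34 and stood at 7.93 and 7.23 in the double knockout, at least 6.29-fold higher, though the labels give all mice as male. The other Y-linked genes measured, Kdm5d at -0.05 and Zfy2 at -0.01, did not pass.

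**Figure D2:**
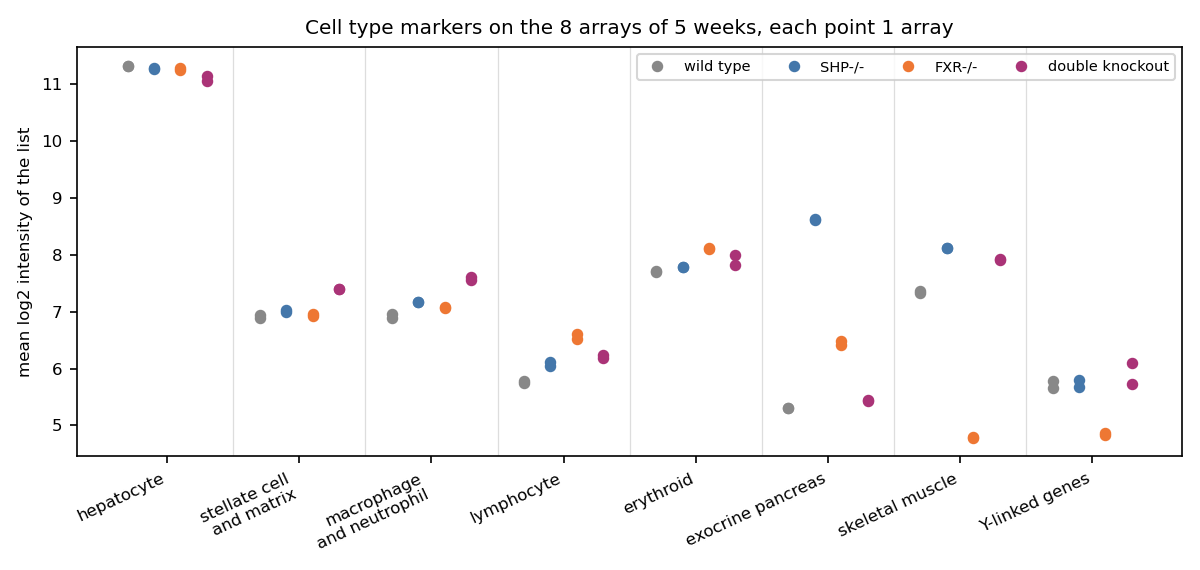
Mean log2 intensity of 8 marker lists on the 8 arrays of 5 weeks, 1 point an array, coloured by genotype. The FXR-/- arrays are lowest for skeletal muscle at 4.78 and 4.80, and the double knockout is highest for matrix and for macrophage and neutrophil markers.

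Genes known to differ between male and female liver changed in opposite directions. Of 17 measured female-biased genes 14 rose, 1 fell and 2 did not pass, with a median log2 fold change of 1.30 (1.15 with 5 undetected genes at their bound), against a background of 12.0% of all genes higher. Of 17 male-biased genes 13 fell, 1 rose and 3 did not pass, at values of -0.36 (C8a), -0.04 (Mup3) and 0.20 (Gstp1), with a median of -0.73, against 9.33% of all genes lower. In mouse liver these genes follow the pattern of growth hormone release, which is pulsatile in males.

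Cyp2b9, a cytochrome P450 of female liver, was undetected on the FXR-/- arrays at 4.31 and 4.19 and stood at 10.26 and 10.21 in the double knockout, at least 39.6-fold higher (adjusted p = 1.0e-17). Wild type, at 5.16 and 5.34, and SHP-/-, at 6.73 and 6.43, lay between. Cyp2b13, its close paralog, was undetected in FXR-/- at 4.41 and 4.33 and also undetected in both FXR-bearing groups, and stood at 9.38 and 9.40 in the double knockout, at least 22.0-fold higher (adjusted p = 1.3e-16). Near-identical copies can share a probe's signal, and the probes of both genes did differ in SHP-/-, where Cyp2b9 was detected and Cyp2b13 was not. Cyp2b10, the related gene that the xenobiotic receptor CAR induces, was at 7.05 and 7.14 in FXR-/- against 8.57 and 8.24 in the double knockout, a rise of 2.48-fold (1.31 ± 0.15). The groups' arrays did not overlap for any of these genes, as for 59.7% of all genes.

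The start regions of the 3 Cyp2b genes are shown because Cyp2b9 and Cyp2b13 appeared together. They are RefSeq sequences of the mouse build GRCm38.p6, plus strand, from 250 bases before to 50 after the annotated start: Cyp2b9 at chr7:26173159-26173458, Cyp2b13 at chr7:26061245-26061544 and Cyp2b10 at chr7:25897408-25897707. Capitals mark the nuclear receptor core motif AGGTCA, searched on both strands.
Cyp2b9: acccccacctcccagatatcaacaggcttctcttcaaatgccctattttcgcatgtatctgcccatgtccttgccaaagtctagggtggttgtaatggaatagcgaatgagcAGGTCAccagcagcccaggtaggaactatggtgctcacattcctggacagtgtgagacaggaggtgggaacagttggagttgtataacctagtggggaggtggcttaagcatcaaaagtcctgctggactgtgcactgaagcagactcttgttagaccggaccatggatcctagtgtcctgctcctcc
Cyp2b13: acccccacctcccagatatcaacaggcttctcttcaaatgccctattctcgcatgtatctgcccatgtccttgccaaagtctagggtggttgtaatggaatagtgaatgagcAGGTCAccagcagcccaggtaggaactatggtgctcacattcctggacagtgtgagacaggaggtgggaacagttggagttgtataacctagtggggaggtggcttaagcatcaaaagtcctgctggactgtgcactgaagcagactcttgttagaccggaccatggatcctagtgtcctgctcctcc
Cyp2b10: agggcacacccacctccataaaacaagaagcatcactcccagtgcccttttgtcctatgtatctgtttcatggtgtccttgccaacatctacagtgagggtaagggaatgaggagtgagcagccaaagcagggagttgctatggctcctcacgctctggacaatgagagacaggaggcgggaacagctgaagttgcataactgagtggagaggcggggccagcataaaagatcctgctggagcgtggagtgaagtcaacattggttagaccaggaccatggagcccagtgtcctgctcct
The Cyp2b9 and Cyp2b13 windows shared 298 of 300 bases, and the differences, counted from the first base shown with Cyp2b9 first, were T48C and C104T. Each shared 229 of 300 bases with Cyp2b10 in an end-to-end alignment that allowed gaps. AGGTCA stood at position -138 from the start in Cyp2b9 and Cyp2b13, was not in the Cyp2b10 window, and was in 16.3% of all 32851 RefSeq windows of this length. The STAT5 motif TTCNNNGAA, also searched on both strands, was in none of the 3 windows and in 8.30% of all. A match describes these letters and is no evidence of binding.

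Further female-biased genes rose. Sult2a2, a sulfotransferase of bile acids and steroids, was at 9.62 and 9.53 in FXR-/- against 12.47 and 12.65 in the double knockout, a rise of 7.91-fold (2.98 ± 0.10, adjusted p = 1.1e-13). Wild type and SHP-/- lay between 5.44 and 5.82, so its order was double knockout, FXR-/-, then the FXR-bearing groups. Cyp4a14, a fatty acid omega-hydroxylase, rose 7.78-fold from 8.16 and 8.12 to 11.12 and 11.08 (2.96 ± 0.08). Acot3, a peroxisomal thioesterase, was at least 2.44-fold higher, and Abcd2, a peroxisomal transporter, and Tox rose by 1.30 and 1.15. Cyp39a1, an oxysterol hydroxylase, was the member that fell, by 0.35 ± 0.12.

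Among male-biased genes, the fatty acid hydroxylases Cyp4a12b and Cyp4a12a fell by 1.64 ± 0.12 and 1.09 ± 0.09, the complement gene C6 by 1.25 ± 0.09, the oxysterol hydroxylase Cyp7b1 by 1.17 ± 0.12 and Cyp2d9 by 1.05 ± 0.09. Hsd3b5, a steroid reductase of male liver, fell by 0.76 ± 0.12. Cyp4a12b was already low in FXR-/-, at 7.33 and 7.26, against 10.79 and 10.87 in wild type, and stood at 5.73 and 5.57 in the double knockout. Serpina1e, an alpha-1-antitrypsin isoform, went against its list. It rose by 2.22 ± 0.09 from 11.51 and 11.46 to 13.65 and 13.76, close to 13.87 and 13.92 in wild type.

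Genes of the growth hormone pathway showed 5 falls, 2 rises and 4 members that did not pass of 11. Socs2, a STAT5 target that damps the pathway, was at 9.54 and 9.44 in FXR-/- against 8.19 and 7.97 in the double knockout, a change of -1.40 ± 0.12 (adjusted p = 1.2e-07). Bcl6, a repressor of female-biased genes in mouse liver, fell by 1.20 ± 0.09 from 9.75 and 9.74 to 8.42 and 8.67. Igf1, the growth factor that the pathway induces, fell by 0.48 ± 0.10 and its carrier Igfals by 0.65 ± 0.08. Cish, another STAT5 target, rose by 0.52 ± 0.09 and the IGF-binding protein Igfbp1 by 1.28 ± 0.20.

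**Figure D3:**
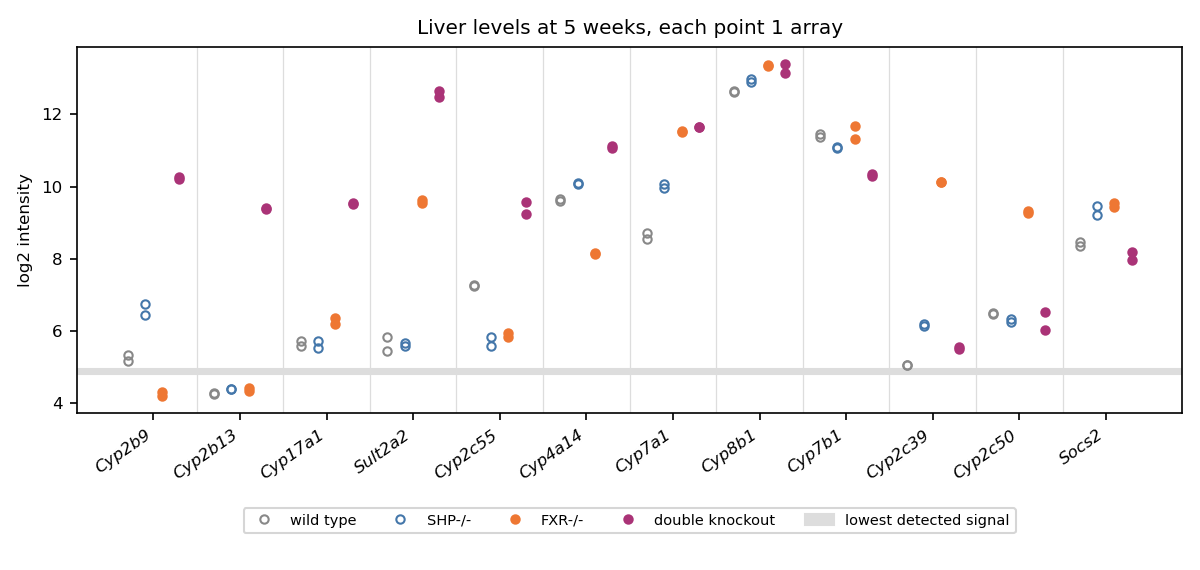
Log2 intensity of 12 genes on the 8 arrays of 5 weeks, 1 point an array, with a grey band at the lowest detected signals. Cyp2b9 and Cyp2b13 lie above 9.3 in the double knockout and below the band in FXR-/-, while Cyp8b1 overlaps between both groups and Cyp7a1 differs by 0.14.

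Of the genes of bile acid synthesis most did not pass. Of 13 measured genes 0 rose, 3 fell and 10 did not pass, with a median of -0.11. The 23.1% that passed, all of them falls, stands against 9.33% of all genes lower and 21.3% called. Cyp7a1, the rate-limiting enzyme of the classic pathway, was at 11.54 and 11.50 in FXR-/- against 11.66 and 11.65 in the double knockout, a difference of 0.14 ± 0.10 (adjusted p = 0.38). Both groups lay above wild type at 8.55 and 8.72 and SHP-/- at 9.97 and 10.06. Cyp8b1, the sterol 12-alpha-hydroxylase, was at 13.36 and 13.35 against 13.14 and 13.40, a difference of -0.08 ± 0.08 (adjusted p = 0.54), and its arrays overlapped.

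The genes that fell belong to the acidic pathway and the oxysterol route. Cyp7b1 was at 11.67 and 11.30 in FXR-/- against 10.33 and 10.29 in the double knockout. Cyp27a1, the mitochondrial sterol 27-hydroxylase, fell by 0.39 ± 0.08 from 11.23 and 11.11 to 10.80 and 10.77, and its other probe fell by 0.76. Cyp39a1 fell from 6.13 and 6.24 to 5.84 and 5.83. Hsd3b7 (0.09), Akr1c6 (-0.09), Akr1c14 (-0.11), Acox2 (0.27), Acot8 (-0.17), Scp2 (-0.17), Abcd3 (-0.05) and Cyp2c70 (-0.18), which makes muricholic acids in the mouse, did not pass. A pair of other Scp2 probes did fall, by 0.63 and 0.54.

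Conjugation, sulfation and transport genes moved in both directions. Of 10 genes of conjugation and sulfation 4 rose and 3 fell. After Sult2a2, Papss2, which makes the sulfate donor, rose by 0.56 ± 0.15 and the bile acid-activating ligase Slc27a5 by 0.34 ± 0.08, while Sult2a8 fell by 0.77 ± 0.13 and Acnat2, an acyltransferase, by 0.81 ± 0.13. Of 12 transporters 5 rose and 3 fell. The basolateral efflux pump Abcc4 rose by 0.86 ± 0.14, the canalicular pump Abcc2 by 0.71 ± 0.08 and the sterol transporter Abcg5 by 0.61 ± 0.09, and the phospholipid flippase Abcb4 rose by 0.45 ± 0.07, though another probe of Abcc2 was at -0.01 (adjusted p = 0.96). The uptake carriers Slc10a1, the sodium-taurocholate transporter, and Slco1b2 fell by 0.78 ± 0.15 and 0.92 ± 0.13, and Slco1a4, another uptake carrier, rose by 0.53 ± 0.15.

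Genes that SHP is reported to repress were split. Of 14 measured 6 rose, 2 fell and 6 did not pass, with a median of 0.08. Cyp17a1, the 17-alpha-hydroxylase of steroid synthesis, led them. It was at 6.37 and 6.20 in FXR-/- against 9.52 and 9.55 in the double knockout, a rise of 9.51-fold (3.25 ± 0.10, adjusted p = 4.1e-14), and at 5.53 to 5.73 in wild type and SHP-/-, so the double knockout stood apart from all 3 others. Ccnd1, the G1 cyclin, rose by 1.40 ± 0.09 from 7.39 and 7.36 to 8.85 and 8.71, with its other probes at 1.14, 0.71 and 0.54, the last of which did not pass. Cyp2b10 rose as above, and Ppargc1a, a coactivator of gluconeogenesis, rose by 1.06 ± 0.09.

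Pck1, the entry enzyme of gluconeogenesis, rose by 0.68 ± 0.15 from 7.15 and 7.36 to 8.08 and 7.79. Fgf21, a fasting hormone, was undetected in FXR-/- at 4.89 and 4.80 and stood at 5.26 and 5.23, at least 1.24-fold higher. Slc10a1 and Bhmt, a methyltransferase of homocysteine, fell, the latter by 0.50 ± 0.15. Cyp7a1 and Cyp8b1 are given above, and G6pc (0.02), Fbp1 (-0.21), Mttp (-0.23) and Cth (-0.29) did not pass. Pck1 and Ppargc1a are also among the 3 rises of 27 gluconeogenesis and amino acid genes, where 6 fell, including Hpd (-0.40), Haao (-0.47) and Prodh (-0.52). These rises were near the 12.0% of all genes higher, and 9.33% of all genes were lower.

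Of 20 measured FXR targets 5 rose and 2 fell, although FXR was absent from both sides. Among all genes 12.0% were higher and 9.33% lower. Apoc2, an activator of lipoprotein lipase, was at 5.87 and 5.72 in FXR-/- against 7.64 and 7.63 in the double knockout (1.84 ± 0.12), against 8.44 and 8.57 in wild type. Vldlr, a lipoprotein receptor, rose by 1.04 ± 0.13 and the HDL receptor Scarb1 by 0.34 ± 0.11, with another Scarb1 probe at -0.11 (adjusted p = 0.56). Ppara, the fatty acid receptor, fell by 0.38 ± 0.11. In the list of steroid hormone metabolism 2 of 15 rose and 4 fell: Serpina6, the corticosteroid carrier, rose by 0.82 ± 0.13, and Hsd17b2, which inactivates sex steroids, fell by 0.91 ± 0.12.

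Genes of xenobiotic metabolism changed in both directions within a single family. Of 28 targets of CAR and PXR 12 rose, 4 fell and 12 did not pass, with a median of 0.21. Cyp2c55 was at 5.83 and 5.94 in FXR-/- against 9.57 and 9.23 in the double knockout, a rise of 11.4-fold (3.51 ± 0.13, adjusted p = 4.4e-13), and at 7.25 and 7.28 in wild type. Cyp2c39 went the other way, from 10.12 on both arrays to 5.54 and 5.51, a change of -4.59 ± 0.10 (adjusted p = 1.9e-16), and was at 5.07 and 5.05 in wild type.

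Cyp2c50 fell by 3.02 ± 0.17 from 9.32 and 9.27 to 6.52 and 6.03, near its wild-type levels of 6.47 and 6.49, and Cyp2c29 rose by 1.81 ± 0.17. These Cyp2c genes are close paralogs, so a probe may read more than 1 of them. Of 23 NRF2 targets and glutathione genes 10 rose and 1 fell. Mgst1, a microsomal glutathione transferase, rose by 3.51 ± 0.12 from 9.21 and 9.28 to 12.78 and 12.73, against 13.55 and 13.35 in wild type, so the FXR-/- arrays were the low ones. Gsta2, Gsta1 and Gstm3, cytosolic glutathione transferases, rose by 1.70 ± 0.12, 1.52 ± 0.15 and 1.07 ± 0.18, and the redox enzyme Srxn1 by 0.96 ± 0.09.

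Lipid genes changed in part. Of 23 genes of fatty acid oxidation and PPAR-alpha targets 11 rose and 1 fell, with a median of 0.22. The 11 that did not pass included Cpt2 (0.10), Acadm (0.22), Acadl (-0.17), Acadvl (0.002), Acads (-0.19) and Hadh (-0.03), while Hadhb rose by 0.30. After Cyp4a14, Cyp4a10 rose by 1.13 ± 0.07 from 12.03 and 12.02 to 13.16 and 13.14, Pdk4, the brake on pyruvate oxidation, by 0.87 ± 0.11 and the peroxisomal thiolase Acaa1b by 0.64 ± 0.08. Of 18 cholesterol genes 8 fell, 1 rose and 9 did not pass, with a median of -0.18: the enzymes Tm7sf2, Mvd, Mvk, Pmvk and Fdps fell by 0.61, 0.59, 0.55, 0.43 and 0.34, and the sterol sensor Insig1 by 0.38, with another Insig1 probe at -0.14 (adjusted p = 0.419).

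Of 25 genes of fatty acid and triglyceride synthesis 7 fell, against 9.33% of all genes lower, and 3 rose, near the 12.0% of all genes higher. The other 15 did not pass. Fasn, the fatty acid synthase, fell by 0.65 ± 0.16, Gpam, the first enzyme of glycerolipid synthesis, by 0.66 ± 0.14 and Mid1ip1 by 0.54 ± 0.13. The lipid droplet proteins Plin4 and Plin5 rose by 1.62 ± 0.15 and 0.56 ± 0.16. Lipa, the lysosomal acid lipase, was at 6.08 and 6.09 in FXR-/- against 10.24 and 10.11 in the double knockout, a rise of 17.1-fold (4.10 ± 0.13), and at 9.68 to 9.87 in wild type and SHP-/-.

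Secreted plasma proteins were mostly lower where they changed. Among all genes 12.0% were higher and 9.33% lower. Of 32 complement and coagulation genes 8 fell and 2 rose: C9 fell by 0.76 ± 0.11, C8b by 0.60 ± 0.08 and F11 by 0.42 ± 0.09, while Hc, which encodes C5, rose by 0.58 ± 0.08. Of 28 acute phase genes 7 fell and 4 rose. The serum amyloids Saa1 and Saa2 fell by 1.06 ± 0.11 and 1.21 ± 0.12, Saa2 from 11.14 and 11.13 to 9.83 and 10.02, and the metallothionein Mt2 and the orosomucoid Orm2 rose by 1.26 ± 0.09 and 0.95 ± 0.09. Of 22 apolipoproteins and lipoprotein genes 3 rose and 3 fell, with Apoa4 at -0.48 and Apob at -0.26. Of 18 hepatocyte markers 4 fell and 0 rose, led by the asialoglycoprotein receptor Asgr2 (-1.29 ± 0.09). The 22.2% called, all of them falls, stands against 9.33% of all genes lower and 21.3% called.

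Serpina12, an adipokine of the serpin family, fell by 1.79 ± 0.09 from 10.26 and 10.25 to 8.51 and 8.41, and its other probe by 0.39. Its neighbours by family, Serpina11 and Serpina9, fell by 1.42 ± 0.10 and at least 2.56-fold. Among the circadian clock genes 4 of 14 rose and 3 fell: the repressors Nr1d2 and Nr1d1 fell by 1.68 ± 0.12 and 0.44 ± 0.11 (another Nr1d1 probe, at -0.35, did not pass), the activator Arntl fell by 0.43 ± 0.13, and the rhythmic gene Noct rose by 1.20 ± 0.11.

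Markers of matrix-producing and phagocytic cells were higher. Of 30 stellate cell and matrix markers 16 rose and 0 fell, with a median of 0.36. Mmp13, a collagenase, rose 4.58-fold from 5.21 and 5.10 to 7.40 and 7.30 (2.20 ± 0.17, adjusted p = 2.7e-08). Sparc, a matrix glycoprotein, was at least 2.07-fold higher, the collagen gene Col1a1 rose by 0.94 ± 0.16, the matricellular gene Ccn2 by 0.90 ± 0.13 and the protease inhibitor Timp1 by 0.84 ± 0.13. The mean log2 level of the list was 6.92 and 6.96 in FXR-/- against 7.40 and 7.39 in the double knockout, above every other array of 5 weeks.

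Of 22 macrophage and neutrophil markers 13 rose, 1 fell and 8 did not pass, with a median of 0.32. S100a8, a neutrophil calcium-binding protein, rose by 1.40 ± 0.12 from 7.0 and 6.71 to 8.32 and 8.19, the endotoxin co-receptor Cd14 was at least 2.61-fold higher, and the macrophage genes Adgre1 and C1qb rose by 0.67 ± 0.15 and 0.59 ± 0.10. Fcer1g, the common Fc receptor gamma chain, was at least 8.08-fold higher, but it was undetected only in FXR-/- and stood at 7.36 to 7.47 in wild type and SHP-/-. The chemokine Cxcl1 fell by 0.63 ± 0.12. Lymphocyte markers had 4 falls and 0 rises of 11, with Cd8b1 at -0.93 and Cd79b at -0.82.

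Of 22 endothelial markers 3 rose, led by Lyve1 (0.97 ± 0.13), a share of 13.6% near the 12.0% of all genes, and of 6 cholangiocyte markers 2 rose, Anxa5 (0.62) and Prom1 (0.62). Of 22 cell cycle genes 10 rose and 0 fell. Cdkn1a, the CDK inhibitor p21, led them with a rise of 3.99-fold from 6.04 and 5.90 to 7.99 and 7.94 (2.0 ± 0.12, adjusted p = 5.4e-10). The mitotic genes Prc1 and Birc5 rose by 1.60 ± 0.18 and 0.88 ± 0.14, and Cdc20 and Aurka were at least 1.67-fold and 1.31-fold higher, though another Cdc20 probe was at 0.25 and did not pass (adjusted p = 0.197). The replication genes Mcm2 and Rrm1 rose by 0.46 and 0.42, while Mcm4, Mcm5, Mcm6, Mcm7, Pcna, Rrm2 and Tyms did not pass, at -0.23 to 0.24.

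Immediate early genes rose in the double knockout. Of 22 immediate early and heat shock genes 16 rose, 1 fell and 5 did not pass, with a median of 0.60. Fos was at 4.98 and 5.03 in FXR-/- against 7.08 and 6.92 in the double knockout (2.0 ± 0.14, adjusted p = 5.5e-09), and undetected in wild type and SHP-/-. Egr1 rose by 1.63 ± 0.10, Ier3 by 1.51 ± 0.14, Jun by 1.43 ± 0.15 and Klf6 by 1.25 ± 0.08, and Socs3 fell by 0.59. Genes of this kind are transcribed soon after a cell is stimulated.

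Of 26 ER stress and ATF4 targets 8 rose and 6 fell, with Ddit4, Psat1 and Ddit3 at 0.98, 0.94 and 0.84, Atf3 at least 1.69-fold higher and the chaperone Hyou1 at -0.70. Of 21 interferon genes 8 rose and 4 fell. The chemokine Cxcl9 rose by 1.23 ± 0.09 and Rsad2 by 1.04 ± 0.09, while Igtp, an interferon-induced GTPase, fell by 1.45 ± 0.09 from 9.16 and 9.20 to 7.78 and 7.69. Of 18 genes of the perinatal liver 10 rose and 1, Cyp2c39, fell. Ly6d rose by 2.21 ± 0.14 from 5.44 and 5.77 to 7.79 and 7.84, Tff3 by 2.14 ± 0.15 and the growth factor Igf2 by 0.91, while the glycolytic genes Pkm, Hk2 and Aldoa, which muscle also expresses, rose by 1.47 ± 0.09, 1.28 ± 0.15 and 1.18 ± 0.10 along with the muscle markers.

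Other large falls concerned genes outside these lists. Abhd1 was at 9.47 and 9.58 in FXR-/- against 5.74 and 5.53 in the double knockout, a change of -3.89 ± 0.13 (adjusted p = 9.1e-14), and its other probe fell by 3.38. Psmc3ip was detected only in FXR-/- among the genotypes of 5 weeks, at 7.62 and 7.72, and was at least 7.13-fold lower in the double knockout. For both, the double knockout lay near wild type, at 5.74 and 5.95 for Abhd1 and 4.35 and 4.46 for Psmc3ip. Cib3 fell by 1.67 ± 0.12 and Glycam1 was at least 2.30-fold lower.

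**Figure D4:**
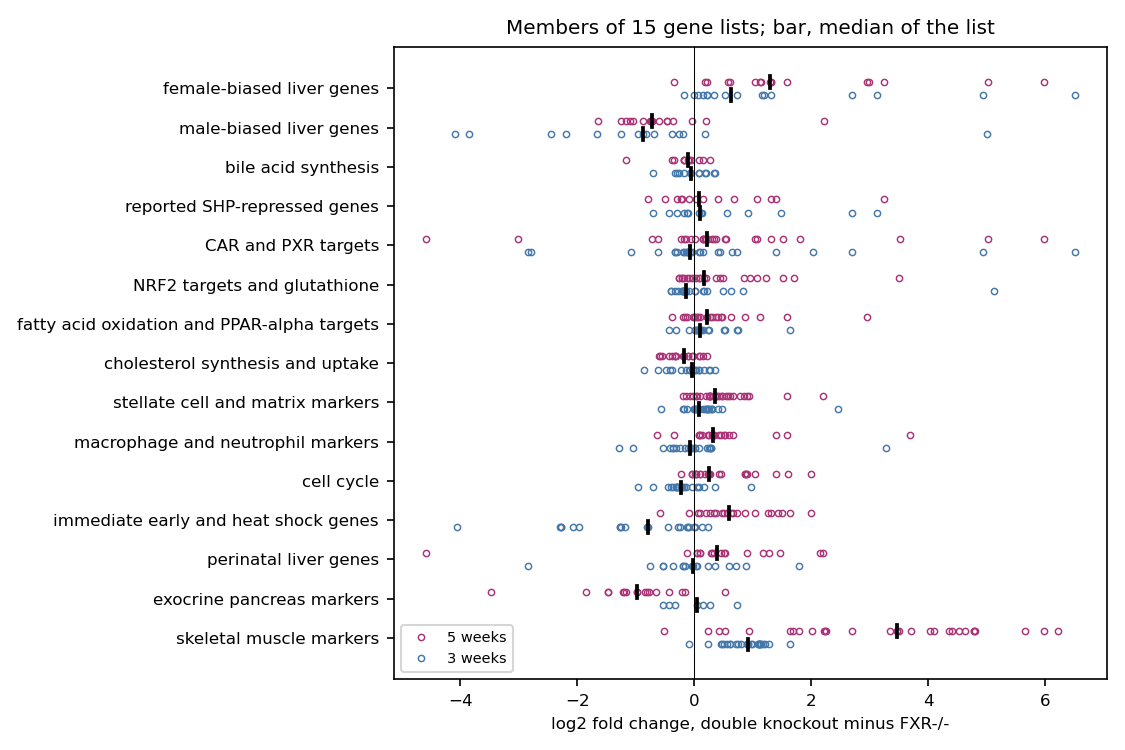
Log2 fold change, double knockout minus FXR-/-, of the members of 15 gene lists at 5 weeks and, for the same genes where tested, at 3 weeks, with a bar at each median. Skeletal muscle (median 3.47) and female-biased genes (1.30) lie to the right at 5 weeks and pancreas (-0.97) and male-biased genes (-0.73) to the left.

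Genes near Nr0b2 on chromosome 4 were counted apart. In the gene order of GRCm38.p6, 44 of the 100 genes within 50 places of Nr0b2 were tested and 17 passed (38.6%), 7 higher and 10 lower, against 101 of 420 (24.0%) on the rest of the chromosome and 21.3% of all genes. These genes were chosen by position, after earlier results were known. Pnrc2, a nuclear receptor coactivator 52 places away, was at 8.01 and 7.99 in FXR-/- against 4.80 and 4.90 in the double knockout, where 1 of 2 arrays detected it (-3.15 ± 0.15, adjusted p = 2.7e-11). In SHP-/- it was at 5.47 and 5.19 against 8.33 and 8.41 in wild type, a difference of -3.05.

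Eya3, 23 places away, was at -1.34 in the double knockout against FXR-/- and at -1.92 in SHP-/- against wild type. Gpn2, 2 places away, was at -1.0 and -0.99 in these comparisons, and Cep85 at -1.10 and -1.03. In the double knockout against FXR-/- at 3 weeks Gpn2 was at -1.36 and Cep85 at -1.65. Xkr8 was at least 2.36-fold lower and Cd52 at least 1.49-fold lower in the double knockout. Extl1 was higher by 1.12, and at least 2.64-fold higher in SHP-/- than in wild type. These neighbours were picked after their values were seen. The 3 comparisons share no array. Within 50 places of Nr1h4, which is deleted on both sides, 13 of 38 tested genes passed (34.2%), against 57 of 322 (17.7%) on the rest of its chromosome. Deletion of SHP and the DNA carried along with the deleted allele cannot be told apart in this design.

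The same comparison at 3 weeks used other arrays on another slide. There 1258 of 7543 genes (16.7%) were called, 8.70% higher and 7.98% lower, and over 7140 genes tested at both ages 569 were called at both, 466 in the same direction and 103 in opposite directions. The shared calls of like direction were 31.0% of the calls at 5 weeks and 38.4% of those at 3 weeks. The difference between ages, tested as a contrast of both effects, was called for 891 of 7834 genes (11.4%), 508 (6.48%) with a higher effect at 5 weeks and 383 (4.89%) with a lower one. That count was 521 where only the arrays compared were fitted and 1447 without double-knockout replicate 1 of 3 weeks, and on median-scaled arrays the split was 457 higher and 556 lower. Age and slide cannot be told apart in levels, but each effect lies within a slide. The labelling controls were also weak on double-knockout replicate 2 of 3 weeks, with a biotin signal of 1851 against 3187 on replicate 1. The SD over genes of the log2 difference between these duplicates was 0.294.

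For some liver genes the difference between ages did not pass. Cyp17a1 rose by 3.25 at 5 weeks and 3.12 at 3 weeks, a difference of 0.13 ± 0.15 (adjusted p = 0.64). Cyp2b13 was at least 22.0-fold higher at 5 weeks and at least 20.3-fold higher at 3 weeks, both bounds, so the sizes cannot be compared. Cyp2c50 fell by 3.02 and 2.79, a difference of -0.23 ± 0.24 (adjusted p = 0.59). Sult2a2 rose by 2.98 at 5 weeks and 0.52 at 3 weeks, where FXR-/- was already at 13.01 and 12.88, and this difference passed (2.46 ± 0.15, adjusted p = 9.9e-10). Male-biased genes fell at both ages, 11 of 15 at 3 weeks, with Cyp4a12a at least 13.4-fold lower and Hsd3b5 at -3.85 there.

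Immediate early genes had opposite effects. At 3 weeks 13 of 22 were lower and 0 higher, with a median of -0.80. The mean level of the list was then highest in FXR-/-, at 8.436 and 8.44. It was 7.414 and 7.419 in the double knockout, 7.577 and 7.629 in wild type and 7.149 and 7.099 in SHP-/-. At 5 weeks it was the double knockout that was high, at 7.762 and 7.847, against 7.078 to 7.186 on the other arrays. Fos was at 9.28 and 9.36 in FXR-/- against 5.27 and 5.25 in the double knockout at 3 weeks, a change of -4.06 ± 0.14, so the difference between ages was 6.06 ± 0.20 (adjusted p = 5.8e-13). Egr1 fell by 2.28 and Jun by 2.28 at 3 weeks. Macrophage and neutrophil markers had 1 rise and 5 falls of 22 at 3 weeks, matrix markers 3 rises and 1 fall of 31, and cell cycle genes 1 rise and 4 falls of 28. The difference between ages passed for 18 of the immediate early genes, 6 macrophage and neutrophil markers, 5 matrix markers and 11 cell cycle genes, all with a higher effect at 5 weeks, and for 1 matrix marker with a lower one.

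Loss of SHP where FXR was intact, SHP-/- against wild type at 5 weeks, was called for 739 of 7424 genes (9.95%), 5.52% higher and 4.43% lower. Over 7088 genes tested in both, 349 were called on both backgrounds, 213 in the same direction and 136 in opposite directions, and those of like direction were 14.5% of the calls without FXR and 30.8% of those with it. The difference between backgrounds was called for 1070 of 7764 genes (13.8%), 621 with a higher effect without FXR and 449 (5.78%) with a lower one. Wild-type mice were bought and the knockouts were not, so source and SHP loss cannot be told apart in the comparison with FXR intact.

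Cyp17a1 was at -0.03 in SHP-/- against wild type and rose by 3.25 without FXR, a difference of 3.28 ± 0.15 (adjusted p = 1.1e-11). Cyp2b9 rose by 1.33 with FXR and was at least 39.6-fold higher without it, and the fitted difference was 4.65 ± 0.15. Cyp7a1 rose by 1.38 with FXR and was at 0.14 without it, a difference of -1.24 ± 0.15 (adjusted p = 7.3e-06). Cdkn1a fell by 1.59 with FXR and rose by 2.0 without it. Bcl6, Serpina12 and Pnrc2 fell on both backgrounds, by 1.33, 1.97 and 3.05 with FXR, and their differences did not pass (adjusted p = 0.59, 0.44 and 0.83).

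Cholesterol genes were higher in SHP-/- with FXR, 10 of 18 with 0 lower, against 1 higher and 8 lower without FXR, and the difference passed for 12 of the genes, all lower without FXR. Among the groups of 5 weeks their mean level was lowest in wild type, at 8.692 and 8.659. It was 8.88 and 8.906 in the double knockout, 9.105 and 9.089 in FXR-/- and 9.13 and 9.075 in SHP-/-. Female-biased genes had 5 rises and 3 falls of 13 with FXR and NRF2 targets 1 rise and 6 falls of 23, and the difference between backgrounds was higher without FXR for 12 and 11 genes of these lists and lower for 0 and 1. Pancreas markers rose in SHP-/-, 24 of 24, and the difference passed for 24 genes, all lower without FXR, as for Ctrb1. The level of these markers also varied within wild type. The 17 described above had a mean of 7.904 and 7.889 at 3 weeks and 5.315 on both wild-type arrays of 5 weeks. The matrix difference passed in 7 of 30 genes with a higher effect without FXR and 1 with a lower one.

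**Figure D5:**
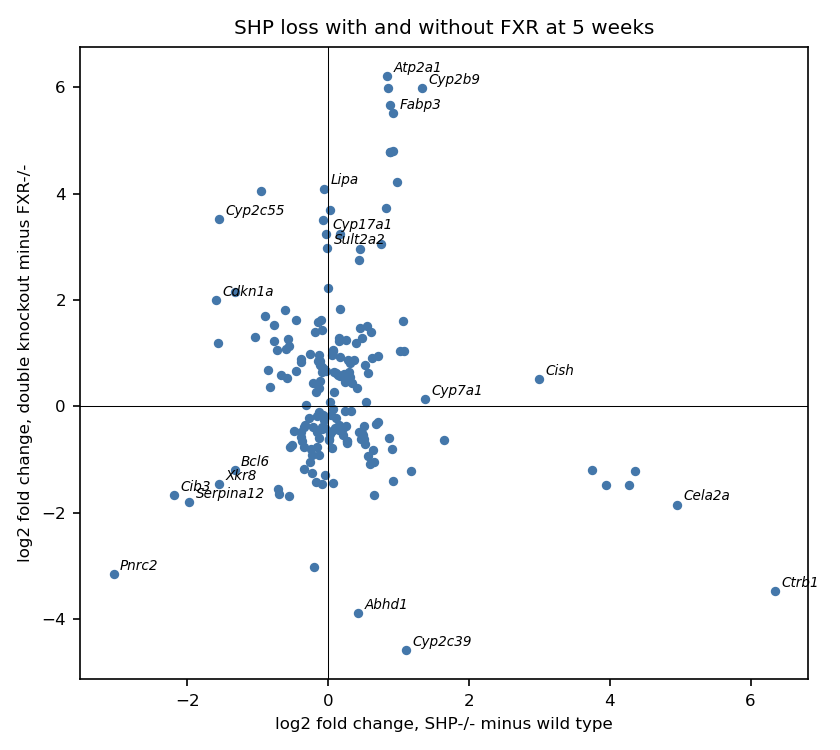
Each point is 1 of the named genes tested in both comparisons, with the log2 fold change of SHP-/- minus wild type on the x axis and of double knockout minus FXR-/- on the y axis, both at 5 weeks. Pnrc2, Serpina12 and Cib3 are lower in both, Ctrb1 has fitted values of 6.34 with FXR and -3.48 without it, and Cyp17a1 lies at -0.03 and 3.25.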

How the data were processed

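RNA was extracted with Trizol and hybridised to Illumina mouse Ref-8 v1.1 bead arrays, 1 array a sample, per the labels' protocols. The deposited signal table holds intensity values that the authors exported without normalization, with a detection p-value for each probe and array, per the file headers. BeadStudio and BSGX Version 3.2.3 are named in the submitters' processing notes. The authors' deposited processed table holds log2 values that, by its values, were quantile normalized (every column's median was 6.22, and each column correlated with its own array at r = 0.985). How that table was transformed is not given in the sources used here, and it served only as an alternative. In addition, 16 columns of bead numbers were not used.

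Signals were background corrected and quantile normalized with limma 3.58.1 (neqc, offset 16, negative controls inferred from the detection p-values) in R 4.3.3, which can compress differences near background. The brightest probe of each gene was used, with symbols updated through Entrez IDs for 20968 probes, and 3628 of 24613 probes had no gene symbol. One mean per group was fitted to all 16 arrays (8 residual degrees of freedom) with trended empirical Bayes moderation and Benjamini-Hochberg adjustment. The difference between ages and between backgrounds was a contrast in the same fit. With 2 arrays a group the number of arrays limits the precision, and an exact permutation test of 1 gene could not reach 0.05. At 5 weeks duplicates differed by 1.19 bead standard errors in FXR-/- and 1.41 in the double knockout, and these genotypes differed by 2.34 to 2.48. Duplicates of the double knockout at 3 weeks differed by 2. Duplicates entered as separate arrays, as the labels give them, and these values do not show whether they are separate samples.

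Named genes were Nr1h4 and Nr0b2, the 15 largest rises and falls with arrays that did not overlap, outside the muscle, pancreas, adipose, erythroid and Y-linked lists, the 5 largest within those lists, every measured member of the bile acid synthesis and SHP-repressed lists, up to 6 called members of each other list, and the 6 largest rises and falls of each difference. Other list members are given with their values. The members and the gene lists were chosen with earlier results of these data known. Scripts were tested on simulated data. Of 200 named genes, 157 had a RefSeq promoter sequence. The alternatives changed background correction, scaling, detection filter, probe choice, arrays fitted, moderation and array weights, or left out 1 array.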

Additional observations from a re-analysis of the deposited data

Results flagged for a closer look

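The effect of losing SHP without FXR differed between 5 and 3 weeks for 891 genes and between the FXR-null and FXR-intact backgrounds for 1070 genes, by limma's test of the difference itself at an adjusted p under 0.05. The count for the ages was 521 where only the arrays compared were fitted and 1447 without double-knockout replicate 1 of 3 weeks.

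Between ages, the fitted log2 difference (5 minus 3 weeks) was 6.06 for Fos and 3.91 for Egr1, both of which were lower in the double knockout at 3 weeks and higher at 5 weeks. It was 4.95 for Atp2a1, 4.92 for Tnni2, 4.86 for Acta1 and 4.71 for Fabp3, which were higher at both ages. Atp2a1, Tnni2 and Fabp3 were undetected in FXR-/- at 5 weeks, so their fitted values depend on signals below detection. Among genes with a lower effect at 5 weeks the difference was -3.81 for Abhd1, -2.79 for Serpina1e, -2.72 for Psmc3ip and -2.60 for Fgfr1op2. It was -3.45 for the pancreas gene Ctrb1. Psmc3ip and Ctrb1 were undetected in the double knockout at 5 weeks, with the same limit. For Apoh the difference was -6.07 ± 1.81 (adjusted p = 0.0369), where the duplicates of the double knockout at 3 weeks stood apart, at 11.42 and 8.58. Apoh was undetected in FXR-/- at 3 weeks.

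Between backgrounds, the fitted log2 difference (without minus with FXR) was 5.06 for Cyp2c55, 4.90 for Cyp2b13 and -5.70 for Cyp2c39 among cytochrome P450 genes. It was 5.38 for Atp2a1, 5.13 for Acta1 and 4.78 for Tnni2 among muscle genes. Atp2a1 and Tnni2 were undetected in FXR-/-, and Cyp2b13 in FXR-/-, SHP-/- and wild type, so their fitted values depend on signals below detection. Erdr1 was at 5.00, with 1 of 2 FXR-/- arrays detecting it, and its other probe rose by only 1.07 in the double knockout. Among pancreas genes it was -9.82 for Ctrb1, -6.80 for Cela2a, -5.75 for Try4, -5.58 for Pnliprp1 and -5.43 for Clps. Ctrb1, Try4 and Clps were undetected in the double knockout and in wild type, and Pnliprp1 in wild type, so these fitted values depend on signals below detection. Their levels were highest in SHP-/-.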

How the results depend on the processing

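The 1584 called genes became 1282 to 1775 under the other settings and 1071 to 1301 when 1 array was left out. With every probe kept separate, 2123 of 9960 probes were called. Their split stayed between 49.0% and 60.5% higher. Of the 200 named genes 183 were called, and 165 to 168 with 1 array left out. Over 3362 values of named genes under other settings, 3264 stayed called or stayed not called, 84 lost the call and 14 gained it. Direction was checked only for genes called in the main fit, and 0 of these values reversed. The difference between ages was called for 891 genes and for 521 where only the arrays compared were fitted, a drop whose cause was not tested. With 1 array left out it ranged from 619 to 1447 genes, the highest without double-knockout replicate 1 of 3 weeks, and the cause was not tested. On median-scaled arrays 45.1% of the 1013 called genes had the higher effect at 5 weeks, against 57.0%. The difference between backgrounds ranged from 804 to 1314 genes, and from 785 to 928 with 1 array left out. With every probe kept separate it was called for 1386 of 10476 probes. Calls in the gene lists numbered 288 of 574 and 227 to 314 under the other settings, 236 without the muscle, pancreas, adipose and erythroid lists. Setting undetected genes at their bound in the list medians was chosen after seeing the data.

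Replicate numbers did not pair the arrays: deviations of same-numbered FXR-/- and double-knockout arrays correlated at r = -0.0982. With the replicate number as a block 1515 genes were called in the comparison, 829 in the difference between ages and 992 in that between backgrounds. Signals near the detection limit, at a log2 level of about 4.80 to 4.94, give bounds only.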
